A study of Mus musculus with 18 samples.

Results

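Replacement histones and the chaperones that load histones onto DNA were followed in single 2-cell mouse embryos through 10 RefSeq transcripts, named by their identifiers among the 26823 in each count file. They were H3f3a (NM_008210), H3f3b (NM_008211), H2afz (NM_016750), H2afx (NM_010436), H1f0 (NM_008197), Hira (NM_010435), Asf1a (NM_025541), Chaf1a (NM_013733), Nap1l1 (NM_015781) and Npm1 (NM_008722). All 10 were present in the files and passed the filter of at least 10 counts in at least 3 embryos. RNA of 18 whole embryos was amplified and sequenced, 9 sired by wild-type males and 9 by Parg(110)-/- males, which lack the full-length form of poly(ADP-ribose) glycohydrolase, the enzyme that degrades poly(ADP-ribose). The strain background was 129SVE and all mothers were wild-type and naturally mated, so the embryos of Parg(110)-/- fathers were heterozygous. The wild-type fathers are numbered 1, 2 and 3 and the Parg(110)-/- fathers 6, 7 and 8. Each gave 3 embryos, which are written as father and embryo (embryo 7-2). Embryos of one father share that father, and the p-values treat them as separate samples.

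Most histones are made only while DNA is being copied, whereas replacement histones are made throughout the cell cycle and can enter chromatin at any time. Chaperones bind free histones and hand them to DNA: H3-H4 chaperones such as HIRA, ASF1 and the CAF-1 complex, and H2A-H2B chaperones such as the NAP1 and nucleoplasmin families. After fertilization the protamines of the sperm nucleus are exchanged for histones stored in the egg, and HIRA loads H3.3 onto the paternal genome.

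H3.3 is encoded by 2 genes that give the same protein from different coding sequences, so that reads can tell one gene from the other. The start of both coding sequences is shown from mm9 (NCBIM37, read through the GENCODE vM1 annotation), with the bases that differ between the genes in capitals. H3f3a lies here on the minus strand at chr1:182741932-182742057 and H3f3b on the minus strand at chr11:115885198-115885323.
H3f3a: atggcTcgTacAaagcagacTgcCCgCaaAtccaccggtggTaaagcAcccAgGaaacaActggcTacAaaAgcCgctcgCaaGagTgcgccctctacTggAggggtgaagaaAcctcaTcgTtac
H3f3b: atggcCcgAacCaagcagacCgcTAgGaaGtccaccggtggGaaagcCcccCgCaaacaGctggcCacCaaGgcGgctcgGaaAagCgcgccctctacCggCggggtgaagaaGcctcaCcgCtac
Within these 126 bases 25 differed. Over the whole 411 coding bases 95 differed, 81 of them at the third codon position, and 0 of the 136 codons, the start codon included, gave another amino acid. The longest stretch shared by both genes was 23 bases. Against Hist1h3a, a replication-coupled H3 gene, each H3.3 gene differed at 5 codons in the amino acid.

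The members differed in how much of their sequence a uniquely mapping read can mark, which matters because only uniquely mapping reads were counted. Read length is not given in the sources used here, so windows of 50 bases were taken. Of the windows along the H2afz transcript, 83.5% had another exact copy elsewhere in mm9, and in its coding part 100% did. The shares over whole transcripts were 48.9% for Npm1, 35.9% for Nap1l1, 32.6% for H3f3a and 26.3% for H3f3b, and in the coding parts 78.7%, 80.5%, 93.4% and 47.5%. H2afx had 6.3%, and Hira, Chaf1a and Asf1a had 1.4%, 1.0% and 0.3%. The levels of H2afz in particular rest on a small part of its transcript. Another gene overlapped the exons of H3f3a by 638 bases on the opposite strand (Gm17275), those of Chaf1a by 144 bases on the opposite strand (Ubxn6) and those of Hira by 10 bases on the same strand (Gm15797). Use of strand in counting is not given in the sources used here, so reads in these overlaps cannot be told apart.

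**Figure D1:**
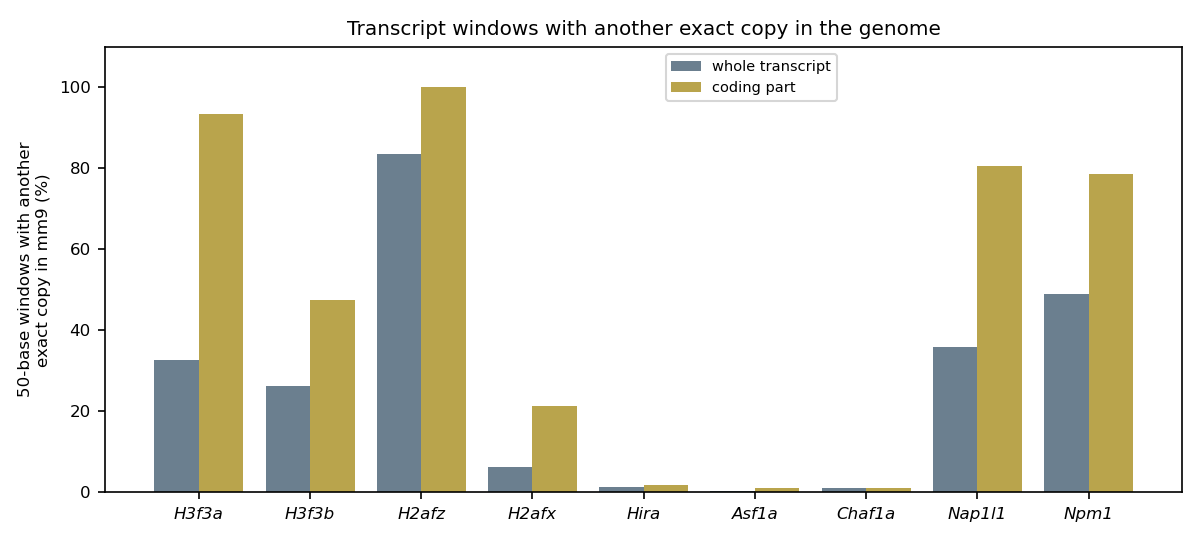
Share of 50-base windows with another exact copy in the mm9 genome, in percent, for each member with a coding transcript in GENCODE vM1, over the whole transcript (grey) and its coding part (yellow). H2afz stands at 83.5% and 100%, and Hira, Asf1a and Chaf1a stay under 2%.

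The libraries held between 2852858 and 13355161 counts, so that 1 count was worth 0.0749 to 0.3505 CPM (counts scaled to a library of 1000000), and 11823 to 16436 transcripts had a count. By group these were 11823 to 16436 transcripts in the wild-type and 12064 to 14047 in the Parg(110)-/- group, at median totals of 7594021 and 7191377 counts. The median Spearman correlation of an embryo with the others lay between 0.722 and 0.769 in the wild-type group. In the Parg(110)-/- group it lay between 0.704 (embryo 7-1) and 0.748. No library stood apart, and the difference between groups in these measures was not tested. Parg itself had 32.0 to 138 CPM in the wild-type group, with a median of 78.4, and 25.2 to 77.3 CPM, with a median of 46.7, in the other group (log2 fold change -0.67 ± 0.34 SE, edgeR adjusted p = 0.872), and the mothers' wild-type allele and stored RNA are counted in it. All 18 egg and 2-cell embryo markers had a count in both groups, though not all in every embryo. Their summed levels were 1026 to 1751 CPM in the wild-type and 907 to 2313 CPM in the Parg(110)-/- group. Nlrp5 alone had medians of 511 and 366 CPM. Zscan4c, Zscan4d, Zscan4f and Mos were low, with wild-type medians of 1.87, 2.8, 0.338 and 0.14 CPM. In the Parg(110)-/- group these were 0.349, 1.39, 0.522 and 0.523 CPM. Zscan4f had a count in 6 and 5 of 9 embryos, and Mos in 5 of 9 of each group. Of 13 sperm markers, Prm1, Prm3, Tnp1, Tnp2, Odf1, Hils1 and Hist1h1t were at 0 in all 18 embryos. The whole sperm list summed to 395 to 757 CPM and 305 to 721 CPM, of which Odf2, a gene of the sperm tail that other cells use in centrosomes, had medians of 521 and 594 CPM. The 10 cumulus cell markers summed to 0.113 to 10.9 CPM and 0 to 7.74 CPM. In each group 6 of the 10 were at 0 in every embryo, but not the same 6. Has2 was among them only in the wild-type group and Cyp11a1 only in the Parg(110)-/- group.

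Between the groups of 9 embryos, 0 of the 10 members were called different by edgeR (quasi-likelihood test, Benjamini-Hochberg adjusted p under 0.1 over the 15333 transcripts tested), and 0 of all 15333 were (0%). At an unadjusted p under 0.05 the count was 1 of 10 members, Nap1l1, beside 889 transcripts or 5.8% of all tested. Nap1l1 had an unadjusted p of 0.0647 with counts summed per father, 0.0585 without father 6 and 0.018 with limma and the father as a random effect. This count thus falls to 0 when the 3 embryos of a father are summed or father 6 is left out. Over 13 other fits Nap1l1 was under 0.05 in 11. In the limma fit H2afz was under 0.05 as well (log2 fold change -1.16, unadjusted p = 0.0364, adjusted p = 0.716). DESeq2 called 0 members and 38 of 12954 transcripts (0.293%). The members' median log2 fold change was -0.04, with 5 above and 5 below 0, beside -0.02 over all transcripts tested. The range of embryos in one group overlapped that in the other for each member. In the sentences that follow, log2 fold changes are of Parg(110)-/- over wild-type and carry their standard error. The cells of an embryo were not separated, so less RNA in one cell and less in both cannot be told apart.

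**Figure D2:**
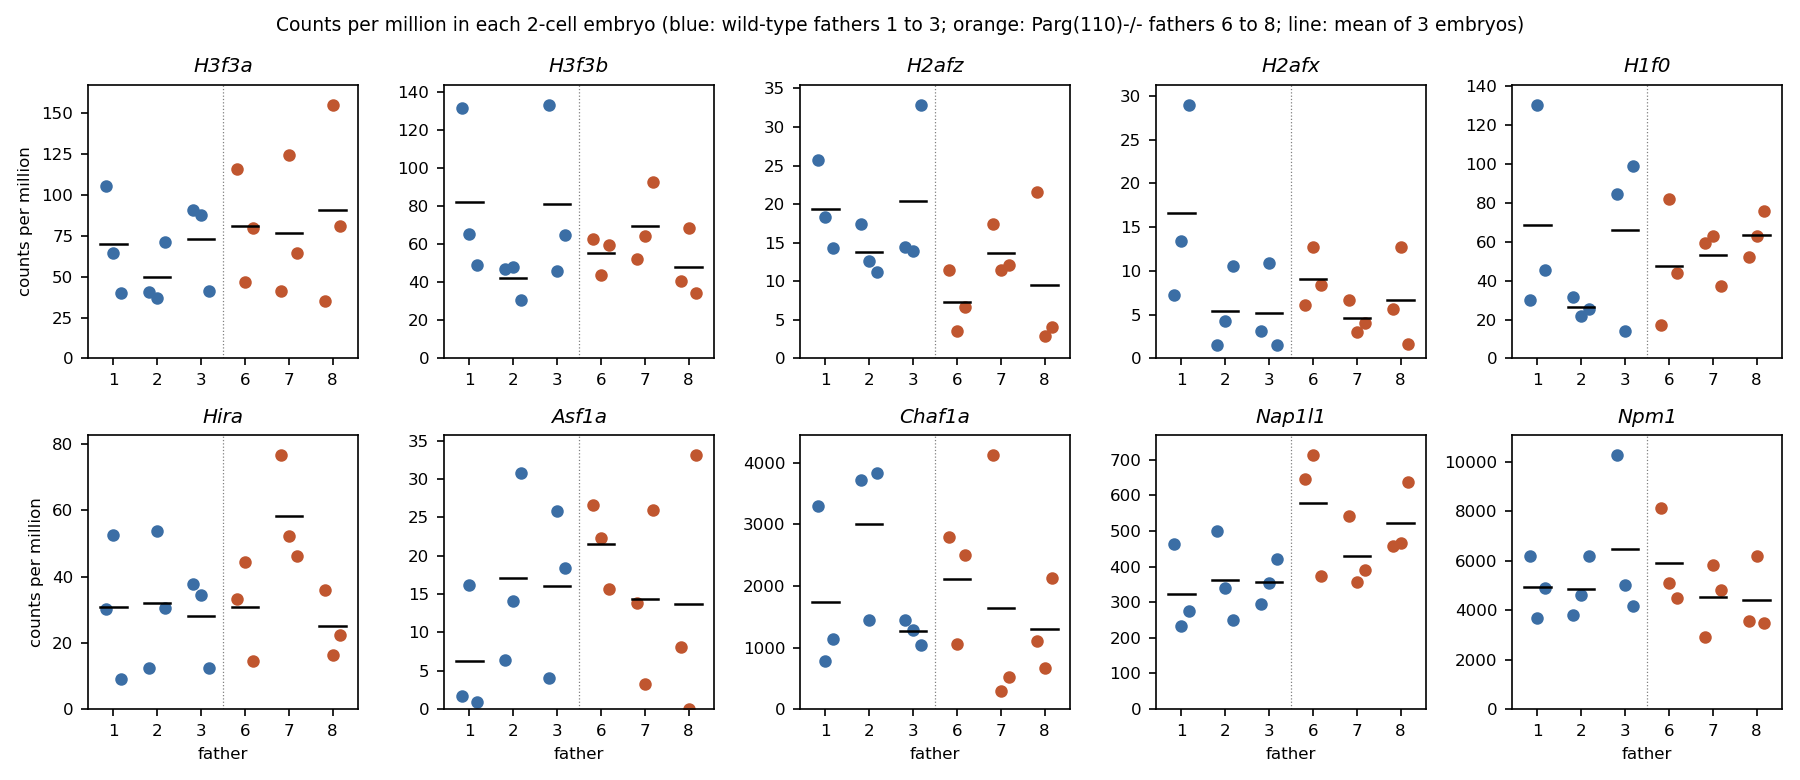
CPM of each member in each of the 18 embryos, on linear axes that start at 0, by father (x axis). Blue points are embryos of wild-type fathers 1 to 3, orange points those of Parg(110)-/- fathers 6 to 8, and black lines the mean of 3 embryos. Nap1l1 is the member with all 9 orange points above the wild-type median, and Asf1a has a point at 0 in embryo 8-2.

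H3f3a, the first of the H3.3 genes (chr1:182730963-182744074, minus strand, mm9), had 36.7 CPM in its lowest wild-type embryo (2-2), a median of 64.4 CPM and 105 CPM in its highest (1-1). In the Parg(110)-/- group it had 35.4 CPM in embryo 8-1, a median of 80.1 CPM and 155 CPM in embryo 8-2. Of the 9 Parg(110)-/- embryos, 3 lay above the whole wild-type range and 1 below it, so the range was wider at both ends. The log2 fold change was 0.38 ± 0.34 (edgeR adjusted p = 0.966). The means of the 3 fathers did not overlap between groups: 69.9, 49.7 and 73.3 CPM for fathers 1, 2 and 3, and 80.9, 76.7 and 90.6 CPM for fathers 6, 7 and 8. Over all tested transcripts the means of the fathers did not overlap in 1554 cases, or 10.1%, and among the members in 3, namely H3f3a, H2afz and Nap1l1. Within father 8 alone H3f3a spanned 35.4 to 155 CPM, a range of 4.39-fold between embryos of one male.

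H3f3b (chr11:115883226-115889276, minus strand), the other H3.3 gene, had 30.8 CPM in embryo 2-3, a median of 49.1 CPM and 134 CPM in embryo 3-1 of the wild-type group. In the Parg(110)-/- group it had 34.5 CPM in embryo 8-3, a median of 59.8 CPM and 92.9 CPM in embryo 7-3. All Parg(110)-/- embryos lay inside the wild-type range. Its log2 fold change was -0.24 ± 0.33 (edgeR adjusted p = 0.976), of the opposite sign to that of H3f3a. The 95% intervals, -0.33 to 1.09 for H3f3a and -0.93 to 0.44 for H3f3b, overlapped. The H3f3b medians ran against this sign, with the higher one in the Parg(110)-/- group. Wild-type embryos 1-1 and 3-1, with 132 and 134 CPM, lay above every Parg(110)-/- embryo. Over 13 other fits the fold change of H3f3b stayed negative, from -0.48 without father 2 to -0.06 without father 1.

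Of the counts of the H3.3 genes together, H3f3a held a share of 49.2% ± 11.0 (SD, n = 9) in the wild-type and 56.7% ± 11.4 (SD, n = 9) in the Parg(110)-/- group. These SDs are of single embryos, and the difference between the means was not tested. The shares ran from 38.8% (95% Wilson interval 35.7% to 41.9%) in embryo 3-3 to 69.9% (64.4% to 74.8%) in embryo 2-3 among wild-type embryos. They ran from 41.0% (37.4% to 44.7%) in embryo 7-3 to 70.2% (67.0% to 73.2%) in embryo 8-3 among the others. In the wild-type group 2 of 9 embryos had more counts on H3f3a than on H3f3b, and in the Parg(110)-/- group 6 of 9 did. Both genes summed to 85.1 to 237 CPM with a median of 106 CPM in the wild-type group and to 76.1 to 224 CPM with a median of 140 CPM in the other, and the groups overlapped nearly throughout. The shares are of counts, not of molecules, because the transcripts differ in length and in repeated sequence. The intervals cover counting error only, since amplified cDNA without molecular identifiers does not give independent molecules.

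**Figure D3:**
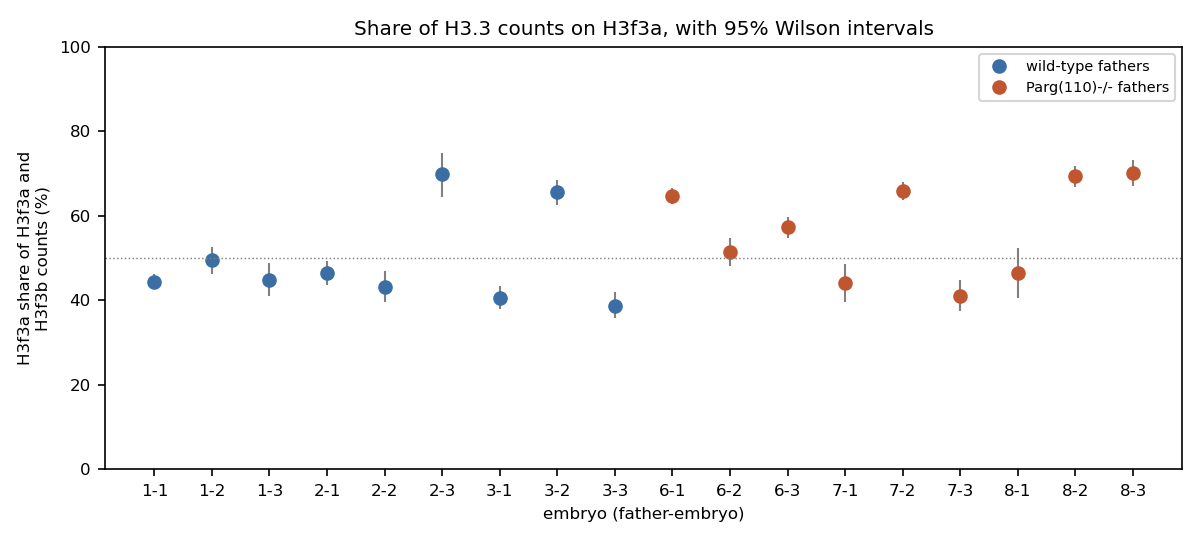
Share of H3f3a in the counts of H3f3a and H3f3b together, in percent, for each of the 18 embryos (points; blue for wild-type and orange for Parg(110)-/- fathers), with 95% Wilson intervals as grey lines and a dotted line at equal counts. Points lie above the dotted line in 2 blue and 6 orange embryos, and both colours run from near 40% to 70%.

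H2afz (chr3:137527451-137529886, plus strand) encodes H2A.Z, an H2A variant found at promoters. Its lowest wild-type embryo (2-3) had 11.2 CPM, the median was 14.4 CPM and the highest (3-3) 32.9 CPM. In the Parg(110)-/- group it had 2.96 CPM in embryo 8-2, a median of 11.5 CPM and 21.6 CPM in embryo 8-1. In this group 4 of 9 embryos lay below the whole wild-type range, and the highest and the lowest of the group were embryos of the same father. The log2 fold change was -0.82 ± 0.53 (95% interval -1.92 to 0.27, edgeR adjusted p = 0.922), the lowest of the 10 members. The means of fathers 1, 2 and 3 were 19.4, 13.8 and 20.4 CPM and those of fathers 6, 7 and 8 were 7.26, 13.7 and 9.54 CPM. Fathers 2 and 7 nearly met, with SDs of 3.26 CPM each over 3 embryos.

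H2afx (chr9:44142798-44144154, plus strand) encodes H2A.X, the variant that is phosphorylated at DNA breaks, and lies on a single exon. It had 1.50 CPM in embryo 2-1, a median of 7.31 CPM and 29.0 CPM in embryo 1-3 of the wild-type group. In the Parg(110)-/- group it had 1.67 CPM in embryo 8-3, a median of 6.16 CPM and 12.7 CPM in embryo 6-2. All Parg(110)-/- embryos fell inside the wild-type range, which was the widest of the replacement histones at 19.3-fold. H2afx had a log2 fold change of -0.43 ± 0.71 (edgeR adjusted p = 0.98). It was 0.36 without father 1, whose embryo 1-3 had the highest value.

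H1f0 encodes the linker histone H1.0, which is typical of cells that have stopped dividing. GENCODE vM1 held it as a partial model of 538 bases at chr15:78859152-78859689, without a coding transcript, so its level per length was not analysed here. It had 14.1 CPM in embryo 3-2, a median of 31.7 CPM and 130 CPM in embryo 1-2 of the wild-type group, and 17.0 CPM in embryo 6-1, a median of 59.2 CPM and 81.8 CPM in embryo 6-2 of the other. Although 8 of the 9 Parg(110)-/- embryos lay above the wild-type median, none lay above the wild-type highest value. H1f0 had a log2 fold change of 0.05 ± 0.42 (edgeR adjusted p = 1), and 3 wild-type embryos of fathers 1 and 3 held the highest values of all 18. Father 2 stood lowest, with a mean of 26.4 CPM ± 4.95 (SD, n = 3), and the fold change was -0.27 without that father.

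Hira (chr16:18877130-18970402, plus strand, 25 exons) encodes the chaperone that loads H3.3 outside replication. It had 9.22 CPM in embryo 1-3, a median of 30.5 CPM and 53.7 CPM in embryo 2-2 of the wild-type group, and 14.5 CPM in embryo 6-3, a median of 36.0 CPM and 76.7 CPM in embryo 7-1 of the Parg(110)-/- group. Only embryo 7-1 exceeded the wild-type range. Hira had a log2 fold change of 0.32 ± 0.44 (edgeR adjusted p = 0.976), which came to -0.14 without father 7. The embryos of father 7 averaged 58.4 CPM ± 16.1 (SD, n = 3), beside 30.8 and 24.95 CPM for fathers 6 and 8 and 28.1 to 32.2 CPM for the wild-type fathers. Against the 9 wild-type embryos father 7 had a log2 fold change of 0.95 ± 0.58 (edgeR adjusted p = 0.682), which did not pass the threshold.

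Asf1a (chr10:53316767-53329019, plus strand) encodes a chaperone that hands H3-H4 to HIRA and to CAF-1. It had 0.865 CPM, from 6 counts, in embryo 1-3, a median of 14.1 CPM and 30.8 CPM in embryo 2-3 of the wild-type group. In the Parg(110)-/- group embryo 8-2 had 0 counts of 5737818, which allows up to 0.523 CPM at 3 counts, and the median was 15.6 CPM and the highest value 33.1 CPM in embryo 8-3. At that floor embryo 8-2 would lie 25.2-fold below the wild-type mean of 13.2 CPM, while embryo 8-3 of the same father had the highest value of all 18. The floor covers counting error only, since amplified cDNA does not give independent molecules, so it sets no least fold for the embryo's RNA. Wild-type embryo 1-3, with 0.865 CPM, lay near it. Low values were found in both groups, and the log2 fold change was 0.35 ± 0.77 (edgeR adjusted p = 0.991).

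Chaf1a (chr17:56179827-56206973, plus strand) encodes the large subunit of CAF-1, which loads H3-H4 behind the replication fork. It had 780 CPM in embryo 1-2, a median of 1444 CPM and 3839 CPM in embryo 2-3 of the wild-type group. In the Parg(110)-/- group it had 299 CPM in embryo 7-2, a median of 1103 CPM and 4120 CPM in embryo 7-1. The lowest and the highest embryo of all 18 had the same father, and differed 13.8-fold. Of the Parg(110)-/- embryos 3 lay below the wild-type range and 1 above it. Between groups the log2 fold change was -0.24 ± 0.42 (edgeR adjusted p = 0.98), and 0.18 without father 2, whose mean of 3002 CPM was the highest of the 6 fathers.

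Nap1l1 (chr10:110910248-110935198, plus strand) encodes a chaperone of H2A-H2B. It had 234 CPM in embryo 1-2, a median of 340 CPM and 499 CPM in embryo 2-1 of the wild-type group, and 356 CPM in embryo 7-2, a median of 467 CPM and 712 CPM in embryo 6-2 of the Parg(110)-/- group. All 9 Parg(110)-/- embryos lay above the wild-type median and 4 lay above the whole wild-type range, while the other 5 lay within it. The log2 fold change was 0.56 ± 0.21 (95% interval 0.13 to 0.99), a 1.48-fold higher level, with an unadjusted p of 0.0126 and an edgeR adjusted p of 0.599. It ranked 319 of 15333 transcripts by p and was not called. The means of fathers 1, 2 and 3 were 324, 363 and 356 CPM and those of fathers 6, 7 and 8 were 577, 430 and 522 CPM. Against the 9 wild-type embryos the log2 fold changes of fathers 6, 7 and 8 were 0.75 ± 0.29, 0.32 ± 0.30 and 0.59 ± 0.28 (edgeR adjusted p = 0.69, 0.851 and 0.564). These comparisons share the wild-type embryos. Over 13 other fits the fold change stayed between 0.46 and 0.67, with adjusted p from 0.117 to 1.

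Npm1 (chr11:33052287-33063206, minus strand) encodes nucleophosmin, an abundant nucleolar protein that binds histones and ribosomal particles. It had 3682 CPM in embryo 1-2, a median of 4911 CPM and 10263 CPM in embryo 3-1 of the wild-type group, and 2931 CPM in embryo 7-1, a median of 4798 CPM and 8117 CPM in embryo 6-1 of the Parg(110)-/- group. The groups overlapped over most of their range. Npm1 had a log2 fold change of -0.12 ± 0.21 (edgeR adjusted p = 0.98), and its 95% interval of -0.55 to 0.31 was, with that of Nap1l1, the narrowest among the members.

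**Figure D4:**
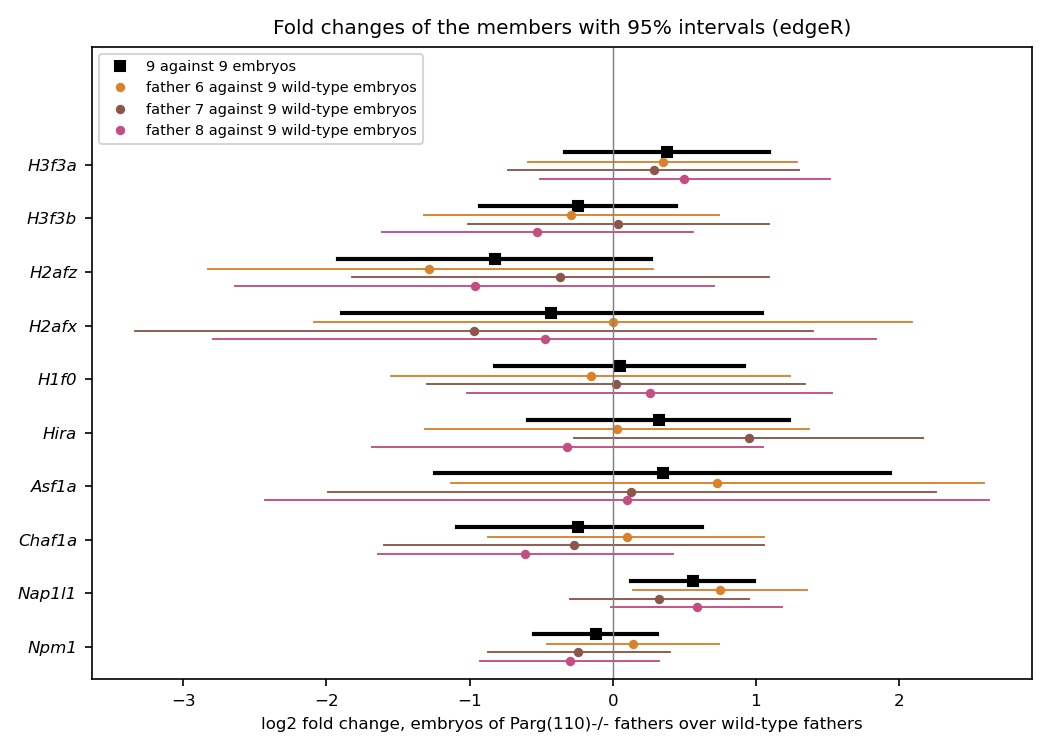
Log2 fold changes of the 10 members (x axis), Parg(110)-/- over wild-type, with 95% intervals from edgeR as lines. Black squares compare 9 with 9 embryos and coloured circles compare the 3 embryos of father 6, 7 or 8 with the 9 wild-type embryos. The black interval of Nap1l1, 0.13 to 0.99, is the one that does not reach 0 before adjustment.

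Comparing the 3 embryos of each Parg(110)-/- father with the 9 wild-type embryos addresses whether the progeny of a single male differ. None of the 10 members was called for any father by edgeR, beside 1 of 42352 tests over all transcripts (0.00236%). DESeq2 called 0 members for each father, beside 834 of 37604 tests over all transcripts (2.22%). At an unadjusted p under 0.05 in edgeR there was 1 test of a member, Nap1l1 for father 6 (unadjusted p = 0.0185), beside 3511 of 42352 tests over all transcripts (8.29%). For fathers 6, 7 and 8 the log2 fold changes of H3f3a were 0.35, 0.29 and 0.50, those of Asf1a 0.73, 0.13 and 0.10, and those of H2afz -1.28, -0.37 and -0.96. Hira had 0.03, 0.95 and -0.32. The comparisons of the 3 fathers use the same 9 wild-type embryos, so like signs among them are not independent.

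Each of the 9 Parg(110)-/- embryos was also compared alone with the 9 wild-type embryos, since an embryo derives from 1 sperm. With 1 embryo on one side, the spread came from the wild-type embryos alone. Of 90 tests on members edgeR called 0, beside 97 of 165913 over all transcripts (0.0585%). Of the members' tests 4 had an unadjusted p under 0.05, beside 9496 of 165913 over all transcripts (5.72%). The smallest belonged to Chaf1a in embryo 7-2 (log2 fold change -2.69 ± 0.88, unadjusted p = 0.00664, adjusted p = 0.364). The others were Asf1a in embryo 8-2 (unadjusted p = 0.0112), Chaf1a in embryo 7-3 (unadjusted p = 0.0293) and Nap1l1 in embryo 6-2 (unadjusted p = 0.031). DESeq2 called 4 of the members' tests, and 6884 of 99519 tests over all transcripts (6.92%). Its calls were Chaf1a in embryo 7-2 (adjusted p = 0.0345), Asf1a in embryo 8-2 (adjusted p = 0.0273) and H2afz in embryos 6-2 and 8-2 (adjusted p = 0.0862 and 0.0492).

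Among embryos of one group, the members varied less than the middle transcript of the files. Their coefficients of variation (SD over mean of CPM) had a median of 54.9% in the wild-type and 50.9% in the Parg(110)-/- group, beside 95.1% and 107% over all transcripts tested. Nap1l1 was the steadiest with 27.2% and 25.8%, and only 3.49% and 1.93% of tested transcripts varied less. Npm1 had 37.4% and 32.6%, and H3f3b 55.0% and 30.5%. Asf1a (81.5% and 68.4%) and Chaf1a (62.0% and 75.6%) varied most among the chaperones, although Chaf1a had at least 2310 counts in every embryo. H1f0 had 76.2% in the wild-type and 36.4% in the Parg(110)-/- group, and H2afx 95.1% and 57.7%, whereas H2afz had 39.5% and 63.9%. These coefficients were not tested against each other. By mean CPM the members stood above 45.5% (H2afx) to 99.9% (Npm1) of tested transcripts, and the part of level in their variation was not tested.

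**Figure D5:**
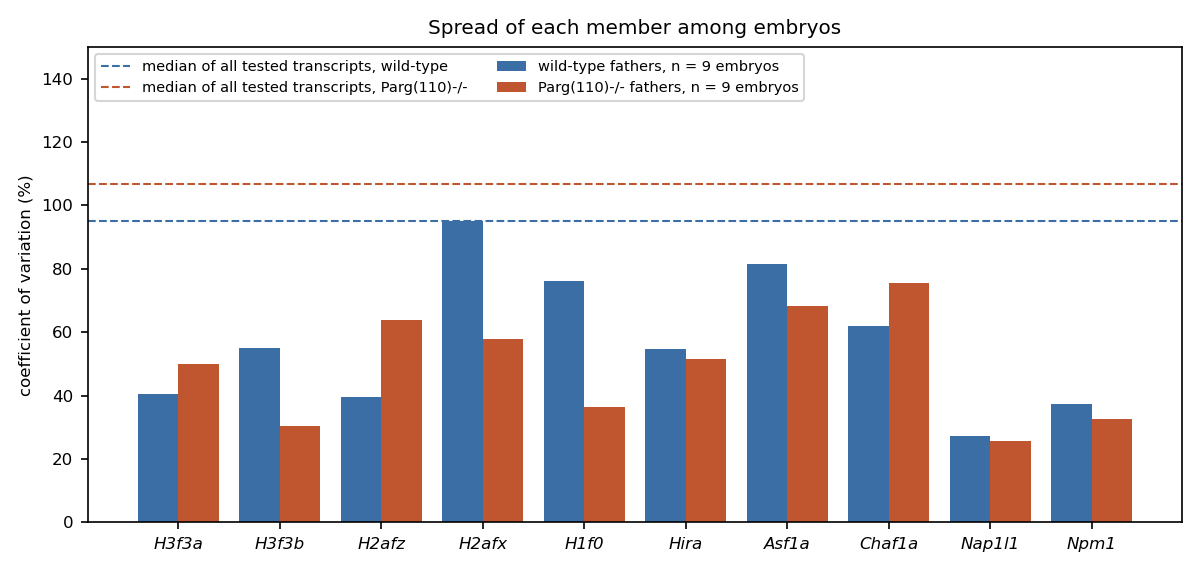
Coefficient of variation of CPM among 9 embryos, in percent, for each member, in embryos of wild-type (blue bars) and Parg(110)-/- fathers (orange bars), with dashed lines at the median of all tested transcripts of each group (95.1% and 107%). Every bar lies below its own line, H2afx of the wild-type group by the least.

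Levels between genes were set side by side as CPM per kilobase of GENCODE vM1 transcript, taking the median of wild-type embryos. Npm1 stood highest with 3007, followed by Chaf1a with 508 and Nap1l1 with 86.6, and then by H3f3a with 22.7. This order of the first 4 held in 18 of 18 embryos, and the wild-type ranges of neighbours did not overlap. Below them came H3f3b with 19.6, H2afz with 13.5, Hira with 7.23, Asf1a with 6.48 and H2afx with 5.38, and each neighbouring pair overlapped. H3f3a exceeded H3f3b per kilobase in 7 of 18 embryos. When only windows without another copy in the genome were taken as length, H2afz stood at 85.8 per kilobase, above H3f3a with 34.2, and its wild-type range of 66.8 to 196 overlapped the 94.0 to 200 of Nap1l1.

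The chaperones were also read against the proteins they work with, per kilobase of transcript in each embryo. Chaf1a exceeded Chaf1b, the middle subunit of CAF-1, in 18 of 18 embryos, with a median ratio of 109 in the wild-type and 216 in the Parg(110)-/- group. The ratios ran from 8.71 to 267 and from 105 to 2654, and their difference between groups was not tested. They divide by low values, since Chaf1b had medians of 9.4 and 3.87 CPM and fell to 0.281 CPM in the Parg(110)-/- group. Hira lay below Ubn1, its partner in the HIRA complex, in 18 of 18 embryos (median ratios 0.10 and 0.16) and above Cabin1, the other partner, in 1 of 18. Asf1a exceeded its paralog Asf1b in 7 of 18. Their median levels stood in opposite order in the groups, 6.48 beside 3.14 in the wild-type and 7.16 beside 10.3 in the Parg(110)-/- group. Their transcript models have 2180 and 1788 bases and coding parts of 615 and 609 bases, and the embryos were not counted again over coding length. Nap1l1 exceeded its relative Nap1l4 in 2 of 18. The order of Nap1l1 and Nap1l4 depends on the length used, because the Nap1l1 transcript model has 3926 bases and that of Nap1l4 1334. Per kilobase of coding sequence Nap1l1 stood higher, with medians of 271 beside 177 in the wild-type and 372 beside 212 in the Parg(110)-/- group. Npm1 exceeded Npm2, the egg nucleoplasmin that helps to unpack sperm chromatin, in 17 of 18 embryos, with median ratios of 2.89 and 2.65.

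Lists of related genes gave the setting, and no gene in them was called by edgeR between the groups of 9. Beside the members, 5 other replacement histones were tested and 0 had an unadjusted p under 0.05. H2afy, which had a median of 0 CPM in both groups, had a log2 fold change of 1.84 ± 1.63 (unadjusted p = 0.272), H2afv had -0.61 ± 0.55 (unadjusted p = 0.275), and H1foo, the egg linker histone, had 0.21 ± 0.55. Of 19 other H3-H4 chaperones, 3 were above and 1 below at an unadjusted p under 0.05. Over all 15333 transcripts tested, 380 were above and 509 below (5.8% together). The median log2 fold change of these chaperones was 0.22, beside -0.02 over all transcripts, and neither difference from all transcripts was tested. Atrx, which works with DAXX to load H3.3 at repeats, had 0.40 ± 0.16 (unadjusted p = 0.0219, adjusted p = 0.733) and Dek had 0.57 ± 0.24 (unadjusted p = 0.0267). The third, Mcm2, is named after its value was seen, with 1.07 (unadjusted p = 0.0338). Chaf1b had -1.91 ± 0.80 (unadjusted p = 0.0246, adjusted p = 0.763), Daxx had -1.46 ± 0.77 (unadjusted p = 0.0701) and Asf1b had 0.88 ± 0.59 (unadjusted p = 0.152).

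Of 19 other H2A-H2B chaperones and H2A.Z exchange factors, 1 was above and 1 below at an unadjusted p under 0.05, with a median of -0.04. Over all transcripts tested 5.8% had an unadjusted p under 0.05. Ep400, an ATPase of a complex that exchanges H2A.Z, had 0.66 ± 0.23 (unadjusted p = 0.00862, adjusted p = 0.5). Supt16h and Ssrp1, the subunits of FACT, had -0.54 ± 0.26 (unadjusted p = 0.0451) and -0.59 ± 0.32 (unadjusted p = 0.0758), and Npm2 had 0.16 ± 0.35. Of 9 factors for the supply of replication-coupled histones 0 had an unadjusted p under 0.05, with a median of 0.10. Those with the smallest p were Sympk and Npat above (1.05 ± 0.60 and 0.74 ± 0.59) and Cpsf2 and Lsm11 below (-0.61 ± 0.40 and -0.56 ± 0.97).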

How the data were processed

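RNA of 18 individual 2-cell embryos was measured. Per embryo, the authors made amplified cDNA with a whole-transcriptome kit, sequenced it on an Illumina HiSeq instrument, mapped the reads to mm9 with RUM, allowed up to 1 mismatch, kept uniquely mapping reads and deposited raw counts per RefSeq transcript. The submitters' processing notes name DESeq 1.10.0. Read length, strand use, and versions of RUM and of the annotation are not given in the sources used here. Amplification can widen the spread between embryos, and unique mapping lowers the counts of genes with processed copies.

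The members and gene lists were chosen with earlier results of these data known. Groups came from the labels. CPM are counts per 1000000 counts of the file. A transcript entered if 3 or more embryos (for single embryos, 1 or more) had 10 or more counts. Tests were edgeR's (version 4.0.16, quasi-likelihood; R 4.3.3), with TMM factors, Benjamini-Hochberg adjustment over all transcripts tested and the study's threshold of 0.1. Standard errors come from the fold change and its F statistic, and 95% intervals from the fit's degrees of freedom. The fit was run on simulated data of separate embryos, without an effect of the father and with changes larger than those of the members. It does not show what the fit would find at the members' fold changes. Alternatives were DESeq2 1.42.0, limma 3.58.1, a threshold of 0.05, no TMM, other filters, sums per father, an embryo-number block, and fathers or embryos left out. Leaving out embryo 2-3 (the shallowest) or 7-1 (the lowest correlation) was chosen after seeing the data. Besides the members and Parg, genes were named as the 2 smallest p-values in each direction of each list, together with H1foo, Npm2, Asf1b, Daxx and Atrx. Symbols were matched for 26136 of 26823 identifiers through RefSeq tables (GRCm38.p6). Positions, lengths and sequences are from GENCODE vM1 on NCBIM37 (mm9).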

Additional observations from a re-analysis of the deposited data

Results flagged for a closer look

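In 2 of the 20 groups examined (10 members in 2 groups of 9 embryos), 1 embryo lay apart from the rest. Its gap to the nearest other, as a share of the group's range, exceeded Dixon's 95% critical value. The measure was taken on CPM. Its rate by chance of about 1 in 20 groups holds for normally distributed values only. Normality was not tested and the measure was not taken on a log scale, so the number of flags was not compared with chance. H2afx had 28.97 CPM (201 counts) in wild-type embryo 1-3, while the other 8 wild-type embryos had at most 13.4 CPM, so that the gap was 0.566 of the range. Npm1 had 10263 CPM in wild-type embryo 3-1, while the other 8 had 3682 to 6202 CPM, and the gap was 0.617 of the range. Neither embryo stood apart in the other members' values of its group by this measure.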

How the results depend on the processing

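Of 212 values recomputed under other settings, 202 kept their direction and their side of the threshold, 1 count moved and 9 fold changes changed sign. The count that moved was that of members called in single embryos, 4 with DESeq2 in place of 0. The log2 fold change of H2afx was 0.12 with limma-voom and 0.36 without father 1. That of H1f0 was -0.27 without father 2, -0.06 without father 8 and -0.03 without embryo 2-3. Without embryo 7-1 it kept its sign, at 0.04. Hira came to -0.14 without father 7 and Chaf1a to 0.18 without father 2. Npm1 came to 0.02 with counts summed per father and 0.05 with limma-voom. The cause was not tested. With the embryo number as a replicate block, 0 members were called; embryos with the same number did not deviate together (median correlation 0.006, beside -0.001 for other numbers), so the numbers do not pair them. Every other setting also called 0 members between the groups of 9. The median coefficient of variation stayed between 52.2% and 58.3% in the wild-type and between 45.3% and 54.6% in the Parg(110)-/- group when each father was left out. The 95% intervals of Asf1a and H2afx reached past 2-fold in both directions. They come from the fit of 9 against 9 embryos, which has no term for the 3 fathers per group.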

Other observations

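Genes of the marker lists showed no call between the groups of 9 embryos either. Of the 13 sperm markers only 3 passed the filter and were tested: Odf2 (log2 fold change 0.04 ± 0.21), Gapdhs (-2.15 ± 1.52) and Ldhc (-0.81 ± 1.44), with Gapdhs and Ldhc at medians of 0.527 and 1.67 CPM in the wild-type group and 0 in the other. Star, the 1 cumulus marker tested, had 0.80 ± 1.46. Of the egg and 2-cell embryo markers, Zscan4f had 1.80 ± 1.40 and Mos 1.96 ± 1.52, both with medians under 1 CPM and, for Zscan4f, with near-identical copies that uniquely mapping reads may not separate. Zp1 had -0.52 ± 0.82 and Hspa1a -0.40 ± 0.98.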
